A study of Mus musculus with 36 samples.

Results

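Cyp2b10, Cyp2b13 and Cyp2b9 are genes of the mouse Cyp2b family of cytochrome P450 enzymes, and their RNA was followed here mouse by mouse in 4 strain-treatment groups. RefSeq lists 8 Cyp2b entries in this cluster on chromosome 7, 5 protein-coding and 3 pseudogenes, and the table of RNA values held 3 of these 8. The genes were chosen by name, and 3 of 3 were measured in all 18 mice and could be tested. Set beside them were the DNase I hypersensitive sites (DHSs, stretches of open chromatin that DNase I cuts) lying wholly within a window of 0.5 Mb on chromosome 7 around the genes. They were chosen by position and came to 38 of 98170 DHSs, the first at chr7:25802189-25802441 and the last at chr7:26201120-26201418.

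Cyp2b enzymes sit in the endoplasmic reticulum of hepatocytes and hydroxylate drugs, other foreign compounds and steroids. Phenobarbital (PB) is a barbiturate that inhibits signalling from the receptor EGFR, after which the constitutive androstane receptor (CAR, gene Nr1i3) loses a phosphate, enters the nucleus, pairs with RXR and binds enhancers of its target genes. Cyp2b10 is the classic CAR target of mouse liver, whereas Cyp2b9 and Cyp2b13 are known as genes with more RNA in female than in male liver under the pattern of growth hormone secretion.

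DNase-seq and RNA-seq were run on livers of the same 18 male mice, 4 given vehicle and 5 given PB in each strain, and replicates were separate mice. The C57BL/6 mice were 9 to 11 weeks old and the B6C3F1 mice, hybrids of a C57BL/6 female and a C3H/He male, 4 to 5 weeks old, and both had at least 5 days to acclimatize. PB mice drank water with 0.05% (wt/vol) PB for 91 days and vehicle mice drank plain water for as long. The strains came from different suppliers at different ages, so an effect of strain and an effect of these differences cannot be told apart. Mice are numbered by the last digit of the animal number, and number 4 is missing from both vehicle groups.

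Read depth was even for RNA and uneven for DNase. Reads counted in genes came to 24.4 to 27.6 M in C57BL/6 vehicle, 23.8 to 27.8 M in C57BL/6 PB, 27.2 to 30.3 M in B6C3F1 vehicle and 27.0 to 29.7 M in B6C3F1 PB, where M stands for mega. Reads counted in DHSs came to 21.4 to 58.1 M, 19.4 to 44.6 M, 7.01 to 24.4 M and 14.5 to 25.7 M in the same order of groups, with the lowest in B6C3F1 vehicle mouse 3. All 5 of 5 hepatocyte markers were present in every mouse, and the most abundant was Alb, the gene of serum albumin, at 43622.5 to 65669 CPM (reads of a gene scaled to the depth of its sample). Their summed level was 67689 to 84255 CPM in C57BL/6 vehicle and 64199 to 73209.8 CPM with PB, which overlapped, and 81296 to 87966 CPM in B6C3F1 vehicle and 64227 to 79796 CPM with PB, which did not. In either strain 0 of these 5 genes were called between PB and vehicle by limma, with a median log2 FC of -0.18 in C57BL/6 and -0.00 in B6C3F1. For so few genes, 0 called is near the share called over all genes tested, given below.

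Of 13862 genes in the table, 13838 had enough CPM to be tested. RNA was compared with limma on log2(CPM + 0.1), and a gene or DHS was called at |log2 FC| ≥ 0.58 and a false discovery rate (FDR) ≤ 0.01, where FC is the fold change. PB against vehicle in C57BL/6 called 117 genes higher, or 0.845% of those tested, and 4 lower (0.0289%), with 3 of 3 Cyp2b genes among the higher ones. The same comparison in B6C3F1 called 215 higher (1.55%) and 62 lower (0.448%), again with 3 of 3 Cyp2b genes higher. The livers were sequenced whole, so a change in the number of cells of a type and a change in RNA per cell cannot be told apart.

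Cyp2b10 stood at 7.92, 8.35, 7.53 and 11.1 CPM in C57BL/6 vehicle mice 1, 2, 3 and 5 and at 897, 1489, 1063, 1196 and 1323 CPM in PB mice 1 to 5. Every PB mouse lay far above every vehicle mouse, with PB mouse 1 the lowest of its group and PB mouse 2 the highest. Mean and SD went from 8.73 ± 1.62 to 1194 ± 229 CPM, a log2 FC of 7.07 (95% CI 6.47 to 7.68, FDR 6.7e-10) and place 2 by log2 FC among all genes tested. The gene rose from place 8075 to place 105 in the order of mean CPM over the 13862 genes.

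In B6C3F1 the same gene stood at 16.7, 8.36, 16.4 and 5.51 CPM in vehicle mice 1, 2, 3 and 5 and at 1662, 1179, 1737, 1381 and 1634 CPM in PB mice 1 to 5. The groups did not overlap, vehicle mice 1 and 3 were about equally high, vehicle mouse 5 was the lowest, and PB mouse 2 trailed the other PB mice. Mean and SD went from 11.7 ± 5.68 to 1519 ± 232 CPM, with a log2 FC of 7.13 (95% CI 6.53 to 7.74, FDR 4.7e-10), place 3, and a move from place 7287 to place 78 by mean CPM.

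Cyp2b13 was close to absent without PB. C57BL/6 vehicle mice had 0.321, 0.531, 0.402 and 0.861 CPM, from 9, 14, 10 and 22 reads, and PB mice 1 to 5 had 119, 78.9, 116, 72.0 and 58.0 CPM. PB mice 1 and 3 were the highest and PB mouse 5 the lowest, and no PB mouse came near the vehicle range. From means of 0.529 ± 0.238 and 88.8 ± 27.3 CPM came a log2 FC of 7.16 (95% CI 6.33 to 7.99, FDR 1.6e-08), the largest of all genes tested in this strain with the constant of 0.1 CPM.

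B6C3F1 vehicle mice had 0.237, 0.0672, 0.317 and 0 CPM of Cyp2b13, from 7, 2, 9 and 0 reads, and PB mice 1 to 5 had 52.1, 94.2, 52.3, 61.8 and 46.0 CPM. Vehicle mouse 5 had no read of the gene, where a floor of 3 reads would stand at 0.112 CPM, and PB mouse 2 was the highest of its group, again without overlap between vehicle and PB. Means were 0.155 ± 0.147 and 61.3 ± 19.3 CPM, and the log2 FC of 8.07 (95% CI 7.24 to 8.91, FDR 2.6e-09) was the largest of this strain with the same constant. Because the vehicle values rest on few reads, the size and place of both fold changes depend on that constant, and with 1 CPM added Cyp2b13 fell below Cyp2b10, to 5.83 in C57BL/6 and 5.71 in B6C3F1.

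Cyp2b9 was present in untreated C57BL/6 livers, at 16.4, 20.4, 10.1 and 16.7 CPM in vehicle mice 1, 2, 3 and 5, and rose to 193, 185, 213, 146 and 143 CPM in PB mice 1 to 5. PB mice 1, 2 and 3 were higher than PB mice 4 and 5, and all stood above the vehicle group. Means were 15.9 ± 4.26 and 176 ± 30.7 CPM, and the log2 FC of 3.49 (95% CI 2.41 to 4.56, FDR 0.000783) took place 14 among all genes tested.

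The vehicle mice of B6C3F1 spread widely for Cyp2b9, with 12.1, 5.24, 31.4 and 2.83 CPM in mice 1, 2, 3 and 5, against 93.2, 167, 89.9, 109.5 and 101 CPM in PB mice 1 to 5. Vehicle mouse 3 was high and vehicle mouse 5 low, a ratio of 11.1, and PB mouse 2 was the highest, yet the groups did not overlap. Means were 12.9 ± 12.96 and 112 ± 31.8 CPM, and the log2 FC was 3.63 (95% CI 2.56 to 4.71, FDR 0.000305), place 23, a call that was lost with only these 2 groups in the fit (FDR 0.0264). The SD of log2 values in these vehicle mice, 1.49, was larger than in 99.8% of genes, against a median over all genes of 0.16. Cyp2b13 at 0.95 and Cyp2b10 at 0.77 were also above 98.6% and 96.8% of genes in this group. The SD of Cyp2b13 rests on 0 to 9 reads a mouse, so its size and place depend on the constant of 0.1 CPM.

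**Figure D1:**
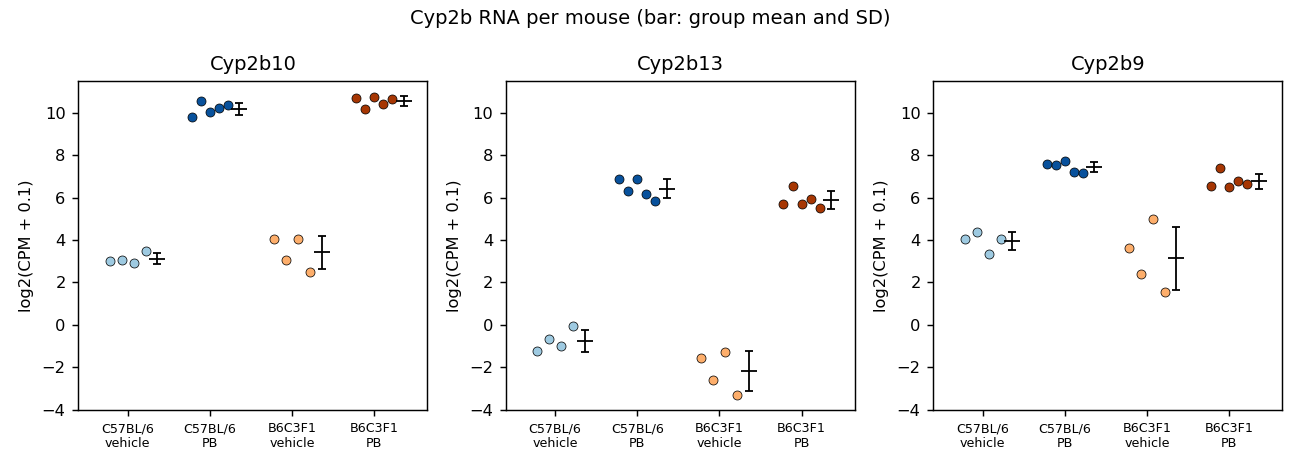
Level of Cyp2b10, Cyp2b13 and Cyp2b9 RNA as log2(CPM + 0.1) in each of 18 mice, with a panel for each gene, points for mice, bars for group means and whiskers for the SD. In all panels the PB mice of both strains stand above all vehicle mice, and the vehicle mice of B6C3F1 spread most for Cyp2b9.

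The order of the genes was read on CPM per kb of transcript, with spliced lengths of 1.878 kb for Cyp2b10, 1.876 kb for Cyp2b13 and 1.877 kb for Cyp2b9. In C57BL/6 vehicle the mean levels per kb were 8.48 for Cyp2b9, 4.65 for Cyp2b10 and 0.282 for Cyp2b13, and every mouse had this order. In C57BL/6 PB they were 636 for Cyp2b10, 93.8 for Cyp2b9 and 47.3 for Cyp2b13, again in this order in every mouse. The ratio of Cyp2b10 to Cyp2b9 per kb thus lay between 0.409 and 0.742 without PB and between 4.63 and 9.26 with it, so the leading gene changed.

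In B6C3F1 vehicle the mean levels per kb were 6.88 for Cyp2b9, 6.26 for Cyp2b10 and 0.0828 for Cyp2b13, and the levels of Cyp2b9 and Cyp2b10 did not differ beyond their spread. The ratio of Cyp2b10 to Cyp2b9 per kb was 0.521 in vehicle mouse 3 and up to 1.95 in the others, where Cyp2b10 was ahead. With PB the means per kb were 809, 59.8 and 32.7 for Cyp2b10, Cyp2b9 and Cyp2b13, in this order in every mouse, and the ratio rose to between 7.03 and 19.3. The ratio of Cyp2b9 to Cyp2b13 per kb narrowed in both strains, from between 19.4 and 51.2 to between 1.63 and 2.46 in C57BL/6 and from between 51.1 and 99.1 in the 3 vehicle mice with reads to between 1.72 and 2.20 in B6C3F1.

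Summed over the 3 genes, Cyp2b RNA came to 18.1 to 29.3 CPM in C57BL/6 vehicle and 1209 to 1753 CPM in C57BL/6 PB. B6C3F1 gave 8.34 to 48.1 CPM in vehicle and 1441 to 1880 CPM in PB. Cyp2b10 made up 28.5 to 41.6% of this sum in C57BL/6 vehicle and 74.2 to 86.8% with PB, and 34.0 to 66.1% and 81.8 to 92.4% in B6C3F1.

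In the PB groups the genes did not rank all mice alike. C57BL/6 PB mouse 1 had the least Cyp2b10 and the most Cyp2b13 of its group, and B6C3F1 PB mouse 2 had the least Cyp2b10 and the most of both other genes. In B6C3F1 vehicle, Cyp2b13 and Cyp2b9 had the same order of mice, 3, 1, 2 and 5, and Cyp2b10 differed from it only in mice 1 and 3. These orders were seen after the values were known and were not tested.

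Between strains, vehicle mice differed in 239 genes called higher in B6C3F1 (1.73% of those tested) and 264 called lower (1.91%), and 0 of 3 Cyp2b genes were called by limma or by edgeR. Cyp2b13 CPM was lower in every B6C3F1 vehicle mouse than in any C57BL/6 vehicle mouse, although the nearest of either strain, at 0.317 and 0.321 CPM, had 9 reads each. The log2 FC was -1.44 (95% CI -2.32 to -0.57), and its FDR of 0.0226 missed the cutoff. This size too depends on the constant, and with 1 CPM added it was -0.40. Cyp2b10 had a log2 FC of 0.30 (95% CI -0.34 to 0.93, FDR 0.524) with overlapping groups. For Cyp2b9 the value was -0.82 (95% CI -1.95 to 0.32, FDR 0.304), also with overlap.

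With PB, 331 genes were called higher in B6C3F1 (2.39%) and 396 lower (2.86%), with 0 of 3 Cyp2b genes called and overlapping groups for all. The log2 FC was 0.35 (95% CI -0.22 to 0.92, FDR 0.346) for Cyp2b10. It was -0.53 (95% CI -1.31 to 0.26, FDR 0.307) for Cyp2b13 and -0.67 (95% CI -1.69 to 0.35, FDR 0.316) for Cyp2b9. All 3 intervals hold 0 and are wide, so they do not show equal levels.

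Whether the effect of PB differed by strain was tested as an interaction, the log2 FC in B6C3F1 minus that in C57BL/6. Over all genes limma called 0 higher (0.0%) and 0 lower (0.0%), while 1093 of 13838 genes had an unadjusted p under 0.05, and edgeR on recovered reads also called 0. The interaction was 0.06 (95% CI -0.80 to 0.91, FDR 0.985) for Cyp2b10, 0.91 (95% CI -0.26 to 2.09, FDR 0.725) for Cyp2b13 and 0.15 (95% CI -1.38 to 1.67, FDR 0.978) for Cyp2b9. No strain difference in the response of the 3 genes was therefore found, within these wide intervals. Each of the 3 signs turned in 1 alternative with all mice. Cyp2b13 went to -0.12 with 1 CPM added, and Cyp2b10 to -0.085 and Cyp2b9 to -0.35 with edgeR.

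Genes with the pattern most like each Cyp2b gene over the 18 mice were ranked by Pearson r of log2(CPM + 0.1), which describes the pattern and was not tested. Most like Cyp2b10 were Cyp2c53-ps (r 0.990), Cyp2c55 (0.990), Cyp2c66 (0.989), Gstm1 (0.988) and Cyp2c65 (0.979), which are P450 entries of the 2c cluster and a glutathione transferase. Next to Cyp2b13 stood Gstt3 (0.978), Cyp2b10 (0.977), Orm3 (0.973), Gstm1 (0.971) and Cyp2c50 (0.970), and next to Cyp2b9 stood Cyp2b13 (0.965), Ces1d (0.962), Gstt1 (0.959), Gstt3 (0.950) and Sult3a1 (0.945). In the list of Cyp2b10, Cyp2b13 held place 7 and Cyp2b9 place 53, and in the list of Cyp2b9, Cyp2b10 held place 6, with an r of 0.927 between these. Cyp2c66 had a log2 FC with PB of 6.66 in C57BL/6 and 8.00 in B6C3F1, but from vehicle means of 0.00892 and 0.00847 CPM. These sizes and their place beside Cyp2b10 therefore depend on the constant of 0.1 CPM. Cyp2c65, with vehicle means of 0.0589 and 0.0435 CPM, depends on it in the same way.

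The CAR pathway was read from lists of genes, with the median log2 FC over all genes tested at -0.01 in both strains. Over all genes tested, limma called 0.845% higher and 0.0289% lower in C57BL/6, and 1.55% and 0.448% in B6C3F1. For a list of few genes, here and below, 0 called is near these shares and says little about its genes. CAR and its regulators comprised 10 genes, of which limma called 0 in either strain, with a median of -0.05 in C57BL/6 and 0.06 in B6C3F1. Their summed level was 2416 to 2689.5 CPM in C57BL/6 vehicle and 1779 to 2285 CPM with PB, without overlap, and 2011 to 3283 and 2197 to 2866 CPM in B6C3F1, with overlap. The most abundant was Egfr, the receptor through which PB acts, at 324 to 1605 CPM. Nr1i3, the gene of CAR, was chosen after its values were seen and went from a mean of 74.5 to 64.1 CPM in C57BL/6 (log2 FC -0.22, FDR 0.318) and from 80.03 to 61.5 CPM in B6C3F1 (-0.37, FDR 0.0159).

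P450 partners and heme genes, which pass electrons to P450 enzymes or make and break their heme, numbered 6, with 1 called higher in C57BL/6 (median 0.36) and 2 in B6C3F1 (median 0.11), and 0 lower. Sums rose without overlap from 1624 to 1849 CPM in C57BL/6 vehicle to 2380.3 to 2648 CPM with PB, and from 1848 to 2241 CPM in B6C3F1 vehicle to 2660.1 to 3534 CPM. Por, the reductase that feeds electrons to every microsomal P450, rose from 96.7 to 246 CPM in C57BL/6 (log2 FC 1.34, FDR 8.8e-05) and from 106 to 371 CPM in B6C3F1 (1.79, FDR 2.1e-06). Cyb5a, the gene of cytochrome b5 and the most abundant of the list at 624 to 1446 CPM, was called in B6C3F1 (log2 FC 0.73, FDR 3.8e-08) and stood just under the fold cutoff in C57BL/6 (0.57, FDR 2.7e-06), with an interaction of 0.16 (FDR 0.668).

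Other CAR target genes numbered 25, with 21 called higher in C57BL/6 (median log2 FC 1.43) and 20 in B6C3F1 (median 1.54), and 0 called lower. Their summed level went from 13880.1 to 16499 CPM in C57BL/6 vehicle to 31584 to 38428 CPM with PB, and from 14153 to 16835 CPM in B6C3F1 vehicle to 35495 to 44168 CPM, with the steroid and drug hydroxylase Cyp3a11 the most abundant at 4374 to 13914 CPM. Largest in C57BL/6 were the arachidonate-metabolizing P450 Cyp2c55 (log2 FC 4.25), the glutathione transferase Gstm3 (4.04), Cyp2c65 (3.70) and the efflux pump Abcc4 (3.14). In B6C3F1 these had log2 FC of 4.34, 3.85, 4.04 and 3.02. Cyp2c65 rose from vehicle means of only 0.0589 and 0.0435 CPM, so its sizes and place depend on the constant of 0.1 CPM. None of these 25, a list that lacks Cyp2c66, moved as far as Cyp2b10 or Cyp2b13, and Cyp2b9 lay among the largest.

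Female-biased liver genes, listed because Cyp2b9 and Cyp2b13 belong to that class, had 10 of 15 tested, with 2 called higher and 0 lower in C57BL/6 (median 0.43) and 3 higher and 2 lower in B6C3F1 (median -0.12). Their sum was 22.9 to 32.0 CPM in C57BL/6 vehicle and 36.4 to 109 CPM with PB, without overlap, and 17.5 to 35.8 and 27.501 to 48.3 CPM in B6C3F1, with overlap, and Cyp17a1, a steroid hydroxylase, was the most abundant at 2.45 to 39.0 CPM. Sult3a1, an amine sulfotransferase, rose in both strains (log2 FC 6.97, FDR 4.4e-09 and 5.06, FDR 2.6e-07), from vehicle means of only 0.0779 and 0.0695 CPM, so that these sizes depend on the constant too. The membrane glycoprotein gene Prom1 was called in B6C3F1 (2.16, FDR 0.000609) and not in C57BL/6 (1.24, FDR 0.0696), with an interaction of 0.92 (FDR 0.668). Cyp2c40, a P450 of the 2c cluster, had a log2 FC of -2.31 in B6C3F1 (FDR 4.0e-05) and Cyp2c69, of the same cluster, -1.98 (FDR 0.00139), and in C57BL/6 neither was called (-1.15, FDR 0.0576 and -1.05, FDR 0.189), with interactions of -1.16 (FDR 0.519) and -0.92 (FDR 0.701). Calls in this list thus went in both directions in B6C3F1 and only higher in C57BL/6. Over all genes tested, 0.448% were called lower in B6C3F1 and 0.0289% in C57BL/6. The interaction was called for none of the genes, so these calls show no strain difference in the response.

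Male-biased liver genes, 12 in number, had 0 called in C57BL/6 (median -0.16) and 1 higher and 0 lower in B6C3F1 (median 0.01), with sums of 4762 to 8864 CPM and the P450 Cyp2d9 the most abundant at 1085 to 1903 CPM. The gene called was Ugt2b1, a glucuronosyltransferase (log2 FC 0.58, FDR 0.00962, interaction 0.31 with an FDR of 0.726). Growth hormone signalling, 9 genes, had 0 called in either strain (median -0.05 and -0.16), with the growth hormone receptor gene Ghr on top at 763 to 996 CPM. Sums were 1715 to 1908 CPM in C57BL/6 vehicle and 1513 to 1650.2 CPM with PB, without overlap, and 1686 to 2104 and 1656 to 1915 CPM in B6C3F1, with overlap.

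Cell type and zone markers were read in the same way, beside the same shares called over all genes tested. Perivenous hepatocyte markers, which mark cells around the central vein where Cyp2b genes are known to be induced most, had 1 of 8 called higher in C57BL/6 (median -0.14) and 0 in B6C3F1 (median -0.15), with sums of 5684 to 9549.5 CPM and Cyp2e1, an ethanol-oxidizing P450, the most abundant at 4024 to 7857 CPM. The gene called in C57BL/6 was Rhbg, an ammonium transporter gene (log2 FC 0.96, FDR 0.00148), with an interaction of -0.50 (FDR 0.625). Periportal hepatocyte markers had 0 of 6 called in either strain (median -0.01 and -0.08), sums of 2228 to 3422 CPM and Pck1, a gluconeogenic enzyme gene, on top at 347 to 1384 CPM.

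B6C3F1 vehicle mouse 3, which had the most Cyp2b9 of its group, also stood apart in some of these sums, as was seen after the values were known. It had the lowest perivenous sum, 5684 CPM beside 8449 to 8845 CPM, the lowest male-biased sum, 4762 CPM beside 6709 to 7028 CPM, the lowest growth hormone signalling sum, 1686 CPM beside 2026 to 2104 CPM, and the highest female-biased sum, 35.8 CPM beside 17.5 to 22.2 CPM in the other vehicle mice. Why this mouse differed was not tested.

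Among other cells of the liver, endothelial markers had 0 of 5 called (median 0.12 in C57BL/6 and 0.05 in B6C3F1), sums of 305 to 388 CPM and the scavenger receptor gene Stab2 on top at 149 to 181 CPM. Biliary markers had 0 of 5 called (0.08 and -0.01), sums of 33.5 to 49.9 CPM and Spp1, which codes for osteopontin, on top at 27.3 to 40.7 CPM. Kupffer and macrophage markers had 0 of 5 called (0.01 and -0.09), sums of 136 to 307 CPM and the lectin gene Clec4f on top at 53.9 to 101 CPM. These 3 lists held no called gene, which for so few genes is near the share called over all genes tested.

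Stellate cell markers had 0 of 5 called (median -0.20 in both strains), sums of 299 to 474 CPM and Reln, which codes for reelin, on top at 138 to 228 CPM.

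Most tested genes near the cluster were not called with PB, which does not show that their level was kept. Over all genes tested, 0.845% were called higher in C57BL/6 and 1.55% in B6C3F1. RefSeq places 105 genes with a transcription start site (TSS) in the surrounding 2.5 Mb, and beside the Cyp2b genes 41 of them were tested. In C57BL/6 2 were called higher and 0 lower, Cyp2a5, a coumarin hydroxylase (log2 FC 1.799, FDR 5.4e-06), and Cyp2a4, a testosterone hydroxylase (1.36, FDR 0.000417), within a range of -0.41 to 1.799 and a median of 0.01. In B6C3F1 3 were called higher and 0 lower, Cyp2a5 (2.03, FDR 8.3e-07), the nasal P450 Cyp2g1 (1.65, FDR 0.00551) and Cyp2a4 (0.96, FDR 0.00654), within a range of -0.50 to 2.03 and a median of -0.02. Cyp2g1 was not called in C57BL/6 (1.29, FDR 0.0680), with an interaction of 0.36 (FDR 0.910). Its vehicle means were only 0.272 CPM in C57BL/6 and 0.453 CPM in B6C3F1, so its sizes depend on the constant of 0.1 CPM. Between strains in vehicle, Cyp2a22 was higher (3.71) and Cyp2a5 lower (-0.79) in B6C3F1, and with PB Cyp2a22 (3.64) and Dedd2 (0.83) were higher.

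The genes lie in a row on the plus strand, with Cyp2b10 first, Cyp2b13 163.837 kb and Cyp2b9 a further 111.914 kb downstream by TSS, each with 9 exons, and with pseudogenes between them. DHS signal here is the normalized count of DNase reads in a DHS, and it was compared on log2(signal + 1). Over all 98170 DHSs, PB called 323 higher (0.329%) and 37 lower (0.0377%) in C57BL/6, and of the 38 DHSs in the window 7 were called higher and 0 lower. In B6C3F1 it called 166 higher (0.169%) and 21 lower (0.0214%) of all DHSs, and 7 higher and 0 lower in the window. Of the window's DHSs 5 were called in both strains and 9 in either.

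The median log2 FC in the window was 0.24 in C57BL/6 and 0.16 in B6C3F1, beside -0.00 and -0.01 over all DHSs. The calls clustered upstream of Cyp2b10, where 7 of the 10 DHSs within 40 kb of its TSS or on it were called in either strain, beside 2 of the 20 DHSs from that TSS to the end of the window. The window's DHSs further upstream, the nearest at 42.3 kb, were not called with PB. The 28 DHSs of the window not described below had means of 20.9 to 949 and a log2 FC with PB of -0.42 to 1.02 in C57BL/6 and -0.64 to 1.201 in B6C3F1, and 0 of them were called.

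**Figure D2:**
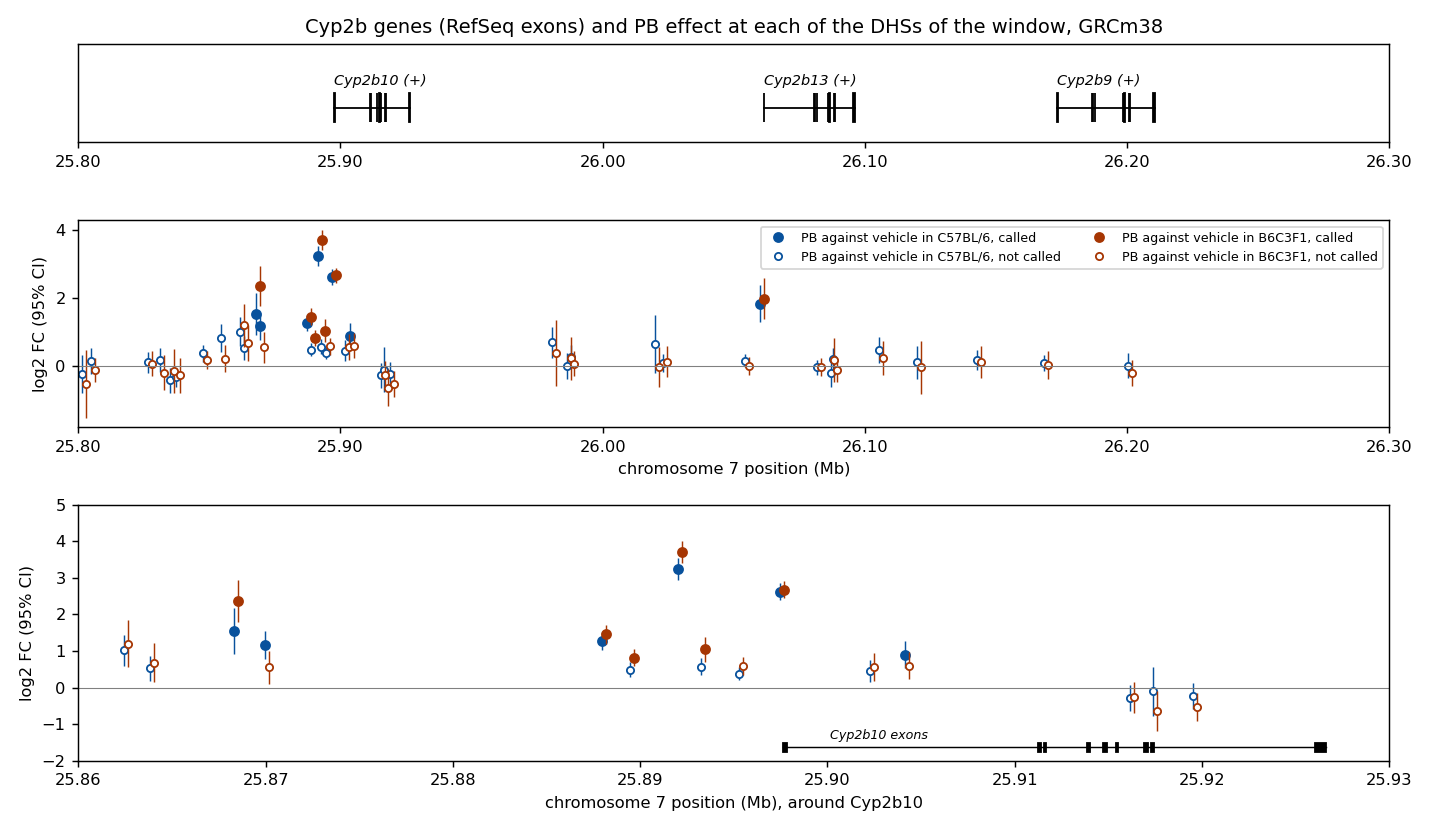
Map of chr7 in Mb with the Cyp2b genes and the log2 FC of each of 38 DHSs with PB in each strain, with 95% CI, filled where called and open where not, and an enlarged view around the start of Cyp2b10. Most filled points lie upstream of Cyp2b10, and the highest stands at 3.24 in C57BL/6 and 3.71 in B6C3F1.

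The DHS that holds the TSS of Cyp2b10, chr7:25897346-25897814, had a signal of 204, 183, 161 and 251 in C57BL/6 vehicle mice 1, 2, 3 and 5 and 1274, 1360.2, 1214, 1126 and 1149 in PB mice 1 to 5. In B6C3F1 it had 205, 256, 218 and 205.5 in vehicle and 1366, 1204, 1586, 1468 and 1461 in PB. Vehicle and PB were far apart in both strains and mice within a group were close. The log2 FC was 2.63 in C57BL/6 (FDR 1.1e-13) and 2.67 in B6C3F1 (FDR 1.2e-11), with an interaction of 0.05 (95% CI -0.28 to 0.37).

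The largest change lay at chr7:25891833-25892442, 5216 to 5825 bp upstream of Cyp2b10 and overlapping the long noncoding RNA gene Gm51461. Its signal was 72.5, 43.4, 70.1 and 70.9 in C57BL/6 vehicle mice and 544, 713, 573, 584 and 619.6 in PB mice 1 to 5. In B6C3F1 vehicle mice it was 58.1, 75.5, 81.2 and 62.2, and in PB mice 955, 760.5, 1058, 955 and 861. Signal without PB was thus low and even, apart from C57BL/6 vehicle mouse 2, and all B6C3F1 PB mice stood above all C57BL/6 PB mice.

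For this DHS the log2 FC with PB was 3.24 in C57BL/6 (95% CI 2.94 to 3.54, FDR 3.5e-13), place 3 of all DHSs, and 3.71 in B6C3F1 (95% CI 3.41 to 4.02, FDR 1.1e-11), place 5. The strains given PB differed by 0.59 (FDR 0.000147), a call that was lost in 5 of 10 fits leaving out a mouse, and the interaction of 0.47 (95% CI 0.04 to 0.90) had an FDR of 0.907. A strain difference in the response of this DHS was therefore not called.

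A further 3 DHSs were called with PB in both strains. The DHS chr7:25887730-25888432, 9.58 kb upstream of Cyp2b10 by its middle, went from a mean of 346 to 834 in C57BL/6 (log2 FC 1.27, FDR 3.9e-07) and from 404 to 1129 in B6C3F1 (1.46, FDR 5.2e-06), without overlap. The DHS chr7:25868340-25868544, 29.2 kb upstream, was smaller, at 17.98 and 48.7 in C57BL/6 (1.54, FDR 0.00942) and 22.8 and 118 in B6C3F1 (2.36, FDR 0.000177), with an interaction of 0.82 (95% CI -0.05 to 1.70). Its call in C57BL/6 was lost in 8 of 9 fits that left out a mouse, while its difference between strains given PB, 1.25 (FDR 0.000107), was called in all 10 such fits.

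The DHS called nearest to another Cyp2b gene was chr7:26060590-26060989, 506 to 905 bp upstream of Cyp2b13. Its signal was 11.4, 31.3, 29.7 and 31.8 in C57BL/6 vehicle mice and 85.7, 89.5, 64.3, 103 and 109 in PB mice 1 to 5. In B6C3F1 it was 17.9, 15.8, 36.9 and 20.3 in vehicle mice and 116, 99.8, 87.2, 79.5 and 65.5 in PB mice. Every PB mouse stood above every vehicle mouse of its strain, although some vehicle values rested on as few as 9 reads.

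From these values came a log2 FC of 1.84 in C57BL/6 (FDR 0.000277) and 1.98 in B6C3F1 (FDR 0.00159), with an interaction of 0.15 (95% CI -0.67 to 0.97). The B6C3F1 call was lost in 2 of 9 fits leaving out a mouse and with the animal number as a block (FDR 0.0183). No DHS held the TSS of Cyp2b13 or of Cyp2b9. Around the Cyp2b9 TSS the nearest DHSs were 3.889 kb upstream and 27.711 kb downstream, and neither was called with PB.

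**Figure D3:**
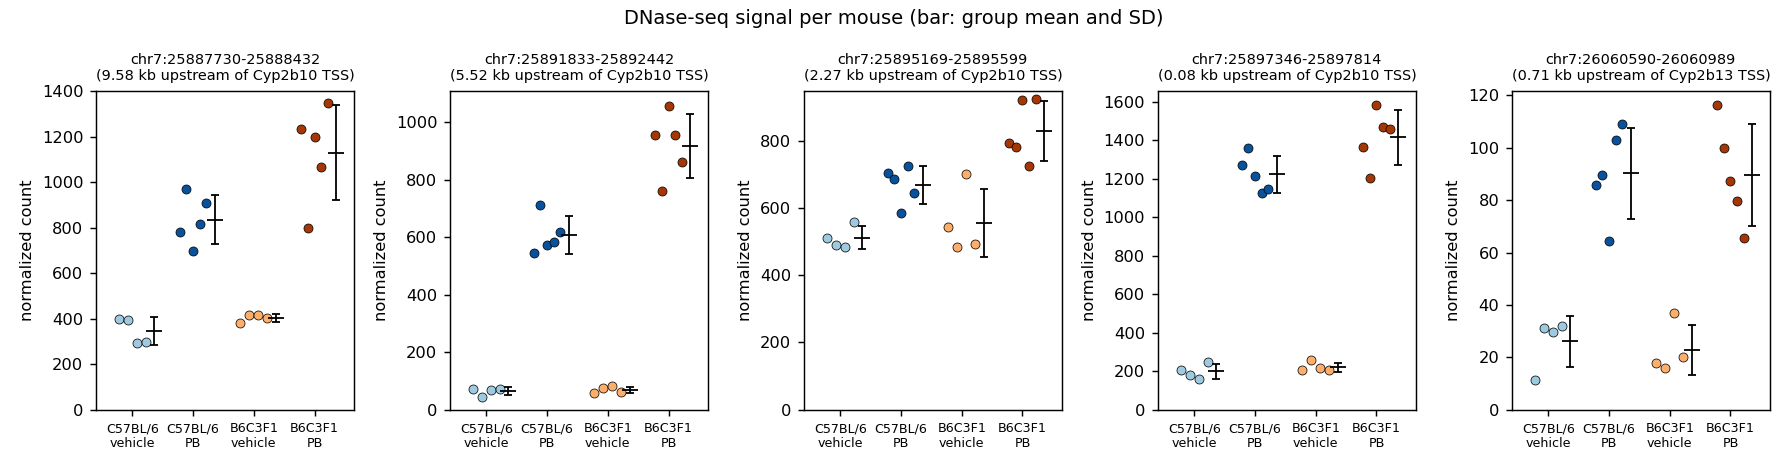
Signal (normalized count) of 5 DHSs near Cyp2b10 and Cyp2b13 in each of 18 mice, with points for mice, bars for group means and whiskers for the SD. PB mice stand above vehicle mice of their strain in every panel. Of the DHSs shown, the one that holds the DR4 letters had the smallest log2 FC.

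Called with PB in C57BL/6 only were chr7:25869909-25870218, with a mean of 55.7 and 129 (log2 FC 1.17, FDR 0.000881), and the intronic chr7:25904146-25904402, with 81.7 and 154.5 (0.90, FDR 0.00764), of which the latter call was lost in 8 of 9 fits that left out a mouse and the former in none. In B6C3F1 these had a log2 FC of 0.56 (FDR 0.416) and 0.60 (FDR 0.183), and interactions of -0.62 and -0.30, so no strain difference was called. Both were already higher in B6C3F1 vehicle mice than in C57BL/6 vehicle mice, by 0.84 and 0.90. With a mouse left out, the call of the former was lost in 7 of 8 fits and that of the latter in 1 of 8.

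Called with PB in B6C3F1 only were chr7:25889271-25889879, with a mean of 399 and 704 (log2 FC 0.82, FDR 0.00118), and chr7:25893221-25893475, with 253 and 513 (1.05, FDR 0.00277). In C57BL/6 they had 0.49 (FDR 0.00898) and 0.58 (FDR 0.00527), each under the fold cutoff before rounding, and interactions of 0.33 and 0.47. The B6C3F1 call of the latter was lost in 4 of 9 fits that left out a mouse, and its C57BL/6 value passed the cutoffs in 2 of 9. Both B6C3F1 calls were lost with the animal number as a block (FDR 0.0182 and 0.0348). No interaction of these 4 DHSs was called, so none is a strain difference in the response by this test.

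Between strains, the DHS comparison in vehicle mice called 6024 higher in B6C3F1 (6.14% of all DHSs) and 4257 lower (4.34%), and in the window 6 higher and 0 lower. With PB it called 3472 higher (3.54%) and 6075 lower (6.19%), and in the window 3 higher and 1 lower. The interaction called 0 higher (0.0%) and 0 lower (0.0%) of 98170 with limma and 0 with edgeR, although 5294 had an unadjusted p under 0.05. In the window 0 of 38 were called, with 5 at an unadjusted p under 0.05 and a lowest FDR of 0.907.

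Sequences are given from GRCm38.p6 on the plus strand, with TSSs from RefSeq, so that the starts of the genes can be read side by side. Each promoter spans 250 bases before the TSS and 50 from it on. In the Cyp2b10 promoter, chr7:25897408-25897707, the capital marks the TSS base. In the Cyp2b13 promoter, chr7:26061245-26061544, and the Cyp2b9 promoter, chr7:26173159-26173458, capitals mark the bases at which they differ, C48T and T104C from Cyp2b13 to Cyp2b9, counted from 1 at the 5′ end.
Cyp2b10 promoter: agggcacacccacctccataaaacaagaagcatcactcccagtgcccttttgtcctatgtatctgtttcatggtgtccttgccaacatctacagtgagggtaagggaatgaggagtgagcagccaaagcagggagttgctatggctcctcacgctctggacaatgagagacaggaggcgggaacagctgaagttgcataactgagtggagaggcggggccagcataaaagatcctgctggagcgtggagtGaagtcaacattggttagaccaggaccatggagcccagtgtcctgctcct
Cyp2b13 promoter: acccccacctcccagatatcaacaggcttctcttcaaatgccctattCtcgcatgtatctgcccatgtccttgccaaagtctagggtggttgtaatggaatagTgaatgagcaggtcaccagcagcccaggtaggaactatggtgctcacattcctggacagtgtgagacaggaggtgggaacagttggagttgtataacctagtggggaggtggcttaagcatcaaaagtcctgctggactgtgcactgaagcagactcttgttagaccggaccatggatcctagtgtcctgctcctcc
Cyp2b9 promoter: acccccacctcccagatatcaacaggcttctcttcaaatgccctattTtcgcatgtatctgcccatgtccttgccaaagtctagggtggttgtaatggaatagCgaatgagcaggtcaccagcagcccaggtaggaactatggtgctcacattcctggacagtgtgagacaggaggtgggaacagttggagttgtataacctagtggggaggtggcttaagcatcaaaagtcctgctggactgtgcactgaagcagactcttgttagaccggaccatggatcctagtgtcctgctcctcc

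The promoters of Cyp2b13 and Cyp2b9 were identical at 298 of 300 bases, yet their genes differed in level per kb in every mouse. Over 1000 bases upstream their identity was 96.0%, and over spliced transcripts 89.2%. Cyp2b10 matched either promoter at 71.7% of aligned columns, 1000 bases upstream of Cyp2b13 at 54.8% and of Cyp2b9 at 55.1%, and their transcripts at 85.5% and 86.0%. The stretches of Cyp2b13 and Cyp2b9 that align with the TSS-holding DHS of Cyp2b10 matched it at 75.7% and 75.1% and overlapped no DHS.

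CAR paired with RXR binds DR4 sites, direct repeats of an AGGTCA-like half-site with 4 bases between. Letters AGGTCANNNNAGNNCA, with N for any base, were searched on both strands, and a match describes letters and does not show binding. Repeats that differ from these letters at a fixed base were not searched for, so a stretch without a match may still hold an AGGTCA-like repeat. Of the 38 DHSs in the window 1 held them, chr7:25895169-25895599, where the minus strand reads AGGTCAGGAAAGTACA 2321 to 2336 bp upstream of Cyp2b10. Such letters stood in 0.308% of 300-base windows centred on all 98170 DHSs and in 0.161% of 32851 promoters of the same length, and in 0 of the 3 Cyp2b promoters. The half-site AGGTCA alone stood in 28.1% of DHS windows, in 16.3% of promoters and in the promoters of Cyp2b13 and Cyp2b9 but not of Cyp2b10.

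The DHS with the DR4 letters was chosen after its values were seen. Its signal was 511, 491, 482 and 559 in C57BL/6 vehicle mice and 705, 686, 584, 725 and 643 in PB mice 1 to 5, and in B6C3F1 543, 484, 701 and 492 in vehicle and 793, 782, 921, 724 and 924 in PB. It was thus among the more open DHSs already without PB, and PB mice stood above vehicle mice of their strain without overlap. At a log2 FC of 0.39 (FDR 0.0415) and 0.59 (FDR 0.0234) it was called in neither strain, though in B6C3F1 the call turned on the fit and was gained without vehicle mouse 3 (FDR 0.00347). The DHS with the largest change, which had low signal without PB, held no such letters.

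Shown for this contrast are 300 bases of each. In the DHS with the DR4 letters, chr7:25895235-25895534, capitals mark the DR4 letters as read on the plus strand, and the DHS further upstream, chr7:25891988-25892287, has none.
DHS with DR4 letters upstream of Cyp2b10: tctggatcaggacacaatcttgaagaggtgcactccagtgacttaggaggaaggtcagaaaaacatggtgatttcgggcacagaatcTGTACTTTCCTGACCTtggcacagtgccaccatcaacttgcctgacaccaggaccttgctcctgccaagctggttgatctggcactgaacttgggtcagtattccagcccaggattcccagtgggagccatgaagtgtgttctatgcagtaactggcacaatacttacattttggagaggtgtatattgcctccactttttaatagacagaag
DHS further upstream of Cyp2b10: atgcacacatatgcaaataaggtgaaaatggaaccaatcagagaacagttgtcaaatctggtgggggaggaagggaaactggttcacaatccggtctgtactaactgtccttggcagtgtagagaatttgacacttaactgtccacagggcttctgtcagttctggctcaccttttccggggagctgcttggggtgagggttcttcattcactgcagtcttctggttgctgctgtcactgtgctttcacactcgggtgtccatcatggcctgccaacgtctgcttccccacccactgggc

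Stretches near Cyp2b13 and Cyp2b9 align with part of the DHS that holds the DR4 letters, over 41.5% and 32.7% of its length. The DHS upstream of Cyp2b13 aligned with part of the DR4 DHS at 76.7% identity, and its whole length of 400 bases matched chr7:26172492-26172891, 518 to 917 bp upstream of Cyp2b9, at 98.5%, with 6 differing bases. In both copies the 16 bases that match the DR4 letters carried T1A and C14T, counted from 1 at the 5′ end of the plus-strand run, and no longer fit them. No DR4 letters occurred within 10 kb upstream of Cyp2b13 or Cyp2b9. Although nearly identical, the stretch upstream of Cyp2b13 was a DHS that rose with PB while the stretch upstream of Cyp2b9 overlapped none. They are printed for this contrast, from chr7:26060640-26060939 and chr7:26172542-26172841, with the 5 bases that differ here in capitals.
DHS upstream of Cyp2b13: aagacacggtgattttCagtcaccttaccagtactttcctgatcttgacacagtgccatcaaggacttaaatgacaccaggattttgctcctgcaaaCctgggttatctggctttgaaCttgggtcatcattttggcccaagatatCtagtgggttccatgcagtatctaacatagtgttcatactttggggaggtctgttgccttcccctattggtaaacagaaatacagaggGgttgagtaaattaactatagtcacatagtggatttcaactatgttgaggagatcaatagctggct
Matching stretch upstream of Cyp2b9: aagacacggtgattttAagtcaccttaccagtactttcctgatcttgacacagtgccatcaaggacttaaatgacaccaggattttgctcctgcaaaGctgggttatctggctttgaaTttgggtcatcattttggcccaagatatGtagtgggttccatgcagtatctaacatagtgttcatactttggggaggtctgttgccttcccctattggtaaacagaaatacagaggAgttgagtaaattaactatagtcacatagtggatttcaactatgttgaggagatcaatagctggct

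Near-identical copies limit what reads can tell. Of all 76-base windows, the read length, those occurring a single time in the genome made up 100% of the Cyp2b10 promoter. In the Cyp2b13 promoter the share was 42.2% and in the Cyp2b9 promoter 46.2%. A read from the rest of these promoters, taken alone, has more than 1 possible place. Reads were sequenced as pairs, and a mate in a unique window may still place such a read. The DHS upstream of Cyp2b13 and its match upstream of Cyp2b9 each had 88.0% of unique windows, so reads could be placed in most of either. Transcripts were safer, with 98.9%, 86.9% and 94.7% of unique windows for Cyp2b10, Cyp2b13 and Cyp2b9, and Cyp2b13 shared 92 windows (5.11%) with Cyp2b9 and 33 (1.83%) with Cyp2b10. In the window 32 of 38 DHSs were wholly unique, beside 97.1% of every 20th DHS of the genome. Whether the missing DHS at the Cyp2b9 TSS reflects closed chromatin or unplaced reads cannot be told apart here.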

How the data were processed

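Livers of 18 mice were grouped by strain and treatment as labelled, with no sample left out. For RNA, the authors used STAR 2.4.0f1 to align reads to mm10, counted them by strand over RefSeq genes and deposited CPM scaled by the TMM method of edgeR 3.12.1. For DNase, the authors aligned reads with Bowtie2 2.1.0, kept those of mapping quality above 12, called peaks with MACS2 2.1.1.20160309 and deposited a signal, the normalized count per DHS from DiffBind 1.16.3, for DHSs found in at least 3 samples. For RNA and DNase alike, 100% of values were whole reads within 0.01 reads after division by the value of 1 read of the column. Recovered reads gave the depth per mouse printed in the report, and 3 reads equal 0.112 CPM in the mouse without reads of Cyp2b13.

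Values were analysed with R 4.3.3 and limma 3.58.1, using a mean-variance trend and robust moderation, on log2(CPM + 0.1) over all 18 mice for genes reaching 0.4 CPM in 3 or more mice of any group, and on log2(signal + 1) within the groups compared, with Benjamini-Hochberg FDR. The quasi-likelihood test of edgeR 4.0.16 on recovered reads called 112 genes higher and 4 lower with PB in C57BL/6 and 210 higher and 65 lower in B6C3F1. Both tests were also run on simulated data, and those results are not given here. Python 3.11.15 with pandas 2.3.3, numpy 2.4.6, scipy 1.17.1 and matplotlib 3.10.9 did the rest, and sequences were aligned with Biopython and read from GRCm38.p6, the coordinates of mm10.

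The Cyp2b genes, the window and the gene lists (CAR and its regulators, P450 partners and heme, other CAR target genes, female-biased and male-biased liver genes, growth hormone signalling, and markers of hepatocytes, their zones and other liver cells) were chosen with earlier results of these data known. Genes of a list were named where called with PB in at least 1 strain, up to 4 a list by |log2 FC|, and otherwise the most abundant. DHSs were named where called with PB in either strain or where they touched the TSS of a Cyp2b gene or the 1000 bp upstream of it. Alternatives were pseudocounts of 0.5 and 1 for CPM and 0.1 and 10 for signal, filters on a CPM of 1, on none and on a mean signal of 10, quantile normalization, median centring, other groups in the fit, a block for the animal number, edgeR, an FDR of 0.05, a window wider by 100.0 kb on each side, and each mouse left out. The result for 1 list of markers is not reported here.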

Additional observations from a re-analysis of the deposited data

Results flagged for a closer look

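Mice standing apart were found in 5 of 52 groups of values, by the gap to the nearest mouse as a share of the range of the group. By chance about 1 in 20 groups would be marked this way if groups were independent. These groups share the same mice and hold neighbouring DHSs, so the count of 5 cannot be judged against that rate. For Cyp2b9, B6C3F1 PB mouse 2 stood at 167 CPM beside 109.5 CPM in the nearest mouse. The DHS chr7:25868340-25868544 had a signal of 35.5 in C57BL/6 vehicle mouse 5, beside 14.4 in the nearest, and chr7:25889271-25889879 had 588 in B6C3F1 PB mouse 2, beside 719. The DHS chr7:25891833-25892442 had 43.4 in C57BL/6 vehicle mouse 2, beside 70.1, and chr7:26060590-26060989 had 11.4 in C57BL/6 vehicle mouse 1, beside 29.7. All were kept, and why they stood apart was not tested.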

How the results depend on the processing

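Over the alternatives with all mice, the log2 FC of Cyp2b10 with PB lay between 6.93 and 7.10 in C57BL/6 and between 7.01 and 7.15 in B6C3F1, and with a mouse left out between 6.99 and 7.20 and between 6.82 and 7.35. That of Cyp2b13 ranged from 5.83 to 7.39 and from 5.71 to 8.57 with all mice, smallest and below Cyp2b10 with a pseudocount of 1, and from 6.99 to 7.39 and from 7.69 to 8.38 with a mouse left out. That of Cyp2b9 ranged from 3.41 to 3.52 in C57BL/6 and from 3.119 to 3.66 in B6C3F1, where it was no longer called with only the 2 groups compared in the fit (3.63, FDR 0.0264). With a mouse left out it ranged from 3.28 to 3.62 and from 3.10 to 4.25, and all 6 calls of the Cyp2b genes were kept.

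Cyp2b13 between strains in vehicle (-1.44) was called at an FDR of 0.05 and, at 0.01, only without B6C3F1 vehicle mouse 3, within a range of -1.75 to -1.06 when mice were left out and of -1.71 to -0.40 (FDR up to 0.257) over the alternatives with all mice. With a mouse left out, Cyp2b9 in this comparison ranged from -1.43 (FDR 0.0223) to -0.29 and Cyp2b10 from 0.08 to 0.61. The interactions changed sign without being called: Cyp2b13 to -0.12 with a pseudocount of 1, and with edgeR Cyp2b10 to -0.085 and Cyp2b9 to -0.35. With a mouse left out they ranged from -0.25 to 0.28 for Cyp2b10 and from -0.38 to 0.76 for Cyp2b9, so no direction can be read from these, and from 0.54 to 1.22 for Cyp2b13, always positive and never called.

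The window count of DHSs called with PB ranged from 5 to 8 in C57BL/6 and from 4 to 8 in B6C3F1 with all mice, and from 5 to 6 and from 6 to 9 with a mouse left out. Between strains in vehicle mice it was 1 to 6 with a mouse left out, and in PB mice 2 to 4. With the animal number as a block the counts were 4 instead of 7 with PB in B6C3F1, 2 instead of 6 between strains in vehicle and 2 instead of 4 between strains with PB. Mice sharing a number had a correlation of -0.20 to 0.24 in DNase and -0.12 to 0.06 in RNA after group means were removed. Whether mice sharing a number were handled together was not tested.

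Near a cutoff were several DHSs. In C57BL/6, chr7:25868340-25868544 was no longer called with quantile normalization, median centring or all mice in the fit, and chr7:25904146-25904402 was lost with quantile normalization, all mice in the fit or the block, while chr7:25893221-25893475 was gained with quantile normalization and edgeR (0.59 in both), with the block (0.62) and in 2 of 9 fits with a mouse left out. With a mouse left out, the first was lost in 8 of 9 fits (FDR up to 0.0591) and the second in 8 of 9 (FDR up to 0.0608). In B6C3F1 chr7:26060590-26060989 was lost in 2 of 9 such fits (FDR up to 0.0104) and with the block (FDR 0.0183), and chr7:25893221-25893475 in 4 of 9 (FDR up to 0.0156) and with the block (FDR 0.0348), and chr7:25889271-25889879 only with the block (FDR 0.0182). There the DHS with the DR4 letters, chr7:25895169-25895599, was gained with all mice in the fit (FDR 0.00175), at an FDR of 0.05 and in 1 of 9 fits with a mouse left out (FDR 0.00347). Between strains in vehicle mice, chr7:25869909-25870218 was lost in 7 of 8 such fits (FDR up to 0.0279) and chr7:25904146-25904402 in 1 of 8 (FDR up to 0.0132). Between strains with PB, chr7:25891833-25892442 was lost in 5 of 10, at 0.54 or more. The cause of these changes was not tested.

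Overall counts moved more than those of the Cyp2b genes. Genes lower with PB in C57BL/6 numbered 4, but 14 at an FDR of 0.05, 8 with 2 groups in the fit and 2 to 7 with a mouse left out. Those in B6C3F1 numbered 62, but 122 at that FDR, 27 with 2 groups in the fit and 40 with the block. Between strains, genes lower in B6C3F1 numbered 264 in vehicle (453 at an FDR of 0.05, 173 to 254 with a mouse left out) and 396 with PB (612, and 262 with a pseudocount of 1), and the interaction called 0 genes but up to 3. DHSs higher with PB in C57BL/6 numbered 323 (504 at an FDR of 0.05, 149 with all mice in the fit) and lower 37 (89 and 7, and 13 to 42 with a mouse left out). In B6C3F1 166 were higher (372 at an FDR of 0.05, 462 with all mice in the fit, 57 with the block) and 21 lower (from 1 with the block to 168), and with a mouse left out 55 to 223 and 4 to 103. Between strains the FDR of 0.05 gave 9747 and 8576 instead of 6024 and 4257 in vehicle (2932 to 6452 and 2048 to 6105 with a mouse left out), and 5531 and 9785 instead of 3472 and 6075 with PB.

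Limits are that groups held 4 or 5 mice of a single sex, time and dose, that strain went with supplier, age and study, that Cyp2b13 vehicle values rest on at most 22 reads, and that whole livers were sequenced. Copies of sequence limit where reads can be placed. RNA and DNase of the same mice were set side by side, and which DHS acts on which gene was not tested.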
